A study of Drosophila melanogaster with 12 samples.

Results

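The comparison described here set the 3 wild-type arrays of migratory cells against the 3 wild-type arrays of nonmigratory cells, 6 of the 12 arrays of a study of the Drosophila melanogaster ovary. The arrays were chosen by their titles. RNA came from ovaries of females aged 2 to 7 days, in 4 groups of 3 biological repeats. All animals carried slbo-Gal4 and a UAS-mCD8-GFP transgene, so the mouse surface protein CD8 sat on the cells in which slbo regulatory DNA drove Gal4. Of the mutant nonmigratory arrays 1 had no genotype label and 1 no age label. These cells were pulled out with magnetic beads against mouse CD8 and are called migratory, and the cells left behind are called nonmigratory. The wild-type genotype was slbo-Gal4, UAS-mCD8-GFP/+. The other 6 arrays held the same fractions from slbo mutant females (slbo-Gal4, slboe7b/UAS-mCD8-GFP,slboLy6) and are used below only to set the wild-type difference beside another pair of fractions. The driver limits the model: slbo-Gal4 is known to be active in border cells and in centripetal and other follicle cells, and each fraction is a mixture, so fewer cells of a type and less RNA per cell cannot be told apart in any value below.

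Border cells are a small cluster of follicle cells that leaves the follicular epithelium and moves between the nurse cells to the oocyte. Centripetal cells move inward later, between the nurse cells and the oocyte, and help to build the front of the eggshell. Both need slbo, a C/EBP transcription factor. Follicle cells are joined to each other by cadherin adhesion, septate junctions and gap junctions.

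Each array was an Affymetrix DrosGenome1 chip, read as 1 signal per probe set with the MAS5 method, which scaled all arrays to nearly the same trimmed mean (150.026 to 150.030). Of 12367 features (genes, or probe sets without a single gene), 8978 passed the filter on dim signals and were tested on the log2 scale with limma, and a feature was called when its Benjamini-Hochberg adjusted p fell below 0.05. The number of arrays limits the precision, with a median SE of 0.302 log2 units. Arrays of a fraction correlated at 0.918 to 0.941, and arrays of different fractions at 0.897 to 0.915.

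In all, 825 features were called, 9.19% of those tested. Higher signals in migratory cells were called for 383 features (4.27%) and lower signals for 442 (4.92%), of which 332 and 390 were single genes. With each array centred on its median, 366 were higher and 273 lower, and the median shift over all features was 0.06 in place of 0.01. The called changes had a median size of 0.85 log2 units for higher and 0.84 for lower features. Of the 383 higher features 378 had all migratory arrays above all nonmigratory arrays, and 436 of the 442 lower features had them all below. Such separation in either direction was found for 2249 of all tested features, or 25.1%. Nearly all called features had it, and genes named for their low p were chosen partly by it. Where it is given for a called gene below, it is thus no separate support. The count of calls fell to 518 without migratory replicate 1, to 537 without migratory replicate 3 and to 451 without nonmigratory replicate 2.

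**Figure D1:**
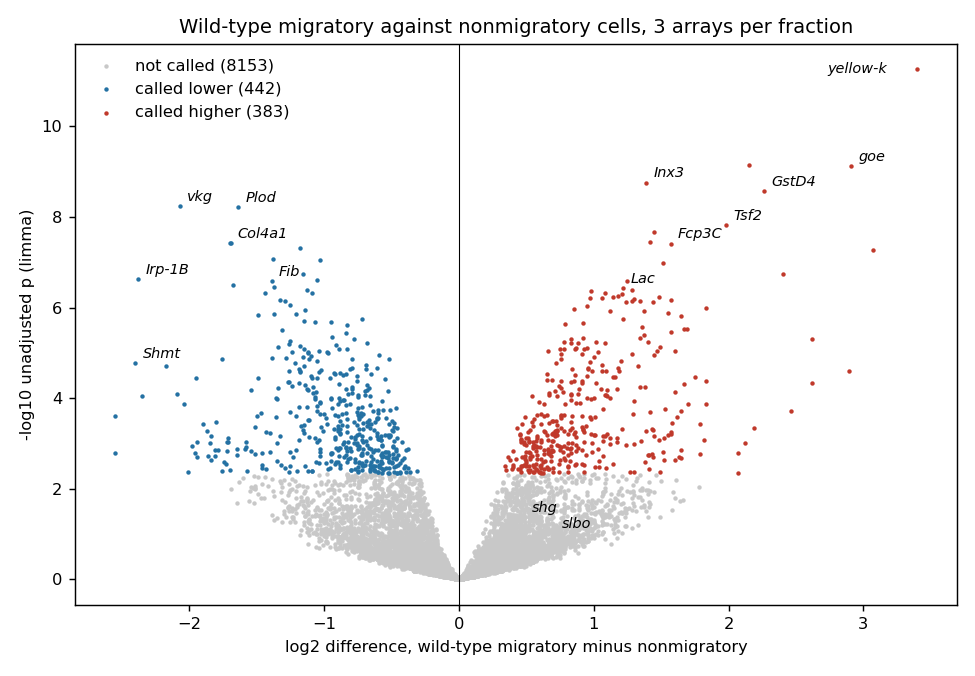
Each point is 1 of the 8978 tested features, placed by its log2 difference between wild-type migratory and nonmigratory cells (x axis) and by the negative log10 of its unadjusted p (y axis), from 3 arrays per fraction. The 383 higher features are red, the 442 lower features blue, and yellow-k lies farthest out at a log2 difference of 3.40.

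The purity of the fractions was checked with the genes that mark the driver's domain and with markers of other cells. slbo itself had signals of 275, 197 and 167 on the migratory arrays and 114.8, 113 and 149 on the nonmigratory arrays. The groups did not overlap, but the difference was not called (log2 0.71, SE 0.404, adjusted p = 0.342). Of the 7 tested genes of the slbo-Gal4 domain only sn, the actin-bundling protein fascin, was called, at a log2 difference of 0.87 (adjusted p = 0.023). That call was lost without any 1 of migratory replicates 1, 2 and 3 or nonmigratory replicate 2. The E-cadherin gene shg gave a log2 difference of 0.49 (adjusted p = 0.207) and the transcription factor gene mirr 1.40 (adjusted p = 0.0888), neither called. Stat92E had a lower mean in migratory cells (257 against 320), and peb was near level (287 against 284). Of the 7 tested markers 5 had log2 differences above 0 and 2 below 0 (median 0.49). The ligand gene upd1, made by the polar cells that travel inside the border cell cluster, was at background in both fractions. The summed signal of the 8 domain markers was 1599 to 1707 on migratory arrays and 1182 to 1437 on nonmigratory arrays, without overlap.

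Markers of other cells also differed. The summed signal of 23 muscle markers was 10529 to 12493 on migratory and 6338 to 8643 on nonmigratory arrays, again without overlap, with 18 and 17 of them above background. The 3 brightest were Act87E, Mlc2 and Argk1, while Act88F, Mlp60A, TpnC4, TpnC41C and fln were at background in both fractions. Of 17 haemocyte markers the summed signal was 4278 to 4802 in migratory and 7706 to 10745 in nonmigratory cells. Its brightest members were the collagen genes Col4a1 and vkg and the engulfment receptor gene drpr, and the blood cell markers Hml, NimC1, NimC4, PPO1, Sr-CI, eater, gcm and lz were at background in both fractions. Of the 17 markers 9 were above background in migratory and 8 in nonmigratory cells. Among them the prophenoloxidase gene PPO2 had means of 173 and 152. Log2 differences of the 9 tested haemocyte markers were above 0 for 5 and below 0 for 4 (median 0.18). The 32 gut markers summed to 5952 to 15943 and 5558 to 12489, the 33 germline markers to 3810 to 5054 and 3540 to 4039, and the 13 fat body markers, led by the yolk protein genes Yp2, Yp1 and Yp3 that follicle cells also make, to 63649 to 79510 and 70938 to 77314. Those 3 lists overlapped between the fractions. The 11 nervous system markers summed to 801 to 848 against 565 to 729 without overlap, with elav, nSyb, brp, para, repo, VGlut and Rdl at background. The part of these other cells in the differences below was not tested.

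A measure of RNA integrity, the 5' to 3' signal ratio, differed as well for 1 of 3 control genes. The ratio of 5' to 3' GAPDH signal, which falls when cDNA is short, was 0.0783, 0.0833 and 0.0947 on the migratory arrays and 0.168, 0.1997 and 0.158 on the nonmigratory arrays (exact permutation p = 0.1, the smallest that 3 against 3 arrays allow). The same ratio overlapped between fractions for actin (0.312 ± 0.0775 against 0.295 ± 0.0572, SD, n = 3, exact permutation p = 0.9) and for eIF-4A (0.154 ± 0.0373 against 0.160 ± 0.0158, exact permutation p = 1). With the GAPDH ratio as a covariate, an alternative chosen with these values known, 4 features were called in place of 825. The ratio separated the wild-type fractions completely, so RNA integrity and cell fraction cannot be told apart among the wild-type arrays alone. That fit also held the mutant arrays, where the ratio overlapped between fractions. It was 0.15 on mutant migratory replicate 2 and 0.1342 on mutant nonmigratory replicate 3. The part of RNA integrity in the wild-type differences was not tested.

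**Figure D2:**
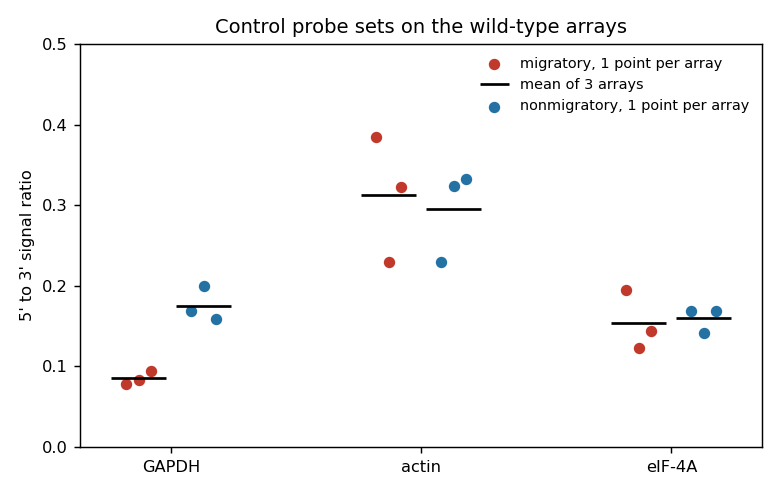
The 5' to 3' signal ratio (y axis) of the GAPDH, actin and eIF-4A control probe sets is plotted for the 3 migratory arrays (red) and the 3 nonmigratory arrays (blue), 1 point per array with the mean as a bar. GAPDH separates the fractions, at means of 0.0854 and 0.175, while the points of the other control genes overlap.

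Septate junction genes had the highest median difference of the lists with 10 or more tested genes. These junctions seal insect epithelia and hold a large complex of claudins, Ig-type adhesion proteins and GPI-anchored proteins. Of 21 tested genes 14 were higher in migratory cells, none was lower and 7 were not called, against 4.27% of all features, and their median log2 difference was 1.10 against 0.01 for all features. Tsf2, a membrane-bound transferrin of the junction, had signals of 2010.5, 1431 and 1504 on the migratory arrays and 500.3, 347 and 386 on the nonmigratory arrays. The lowest migratory array was above every nonmigratory array by far, a 3.96-fold difference of the means on the fitted scale (log2 1.98, SE 0.179, n = 3 per fraction, adjusted p = 1.7e-05).

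Among the claudins, the proteins that form the barrier, kune had signals of 706, 428 and 523 in migratory and 229.6, 162 and 213 in nonmigratory cells. sinu, another claudin, had 161, 104 and 134 in migratory and 38.7, 29.7 and 40.1 in nonmigratory cells. The fractions did not overlap for either gene. kune rose by a log2 of 1.40 (SE 0.204, adjusted p = 0.000618), and sinu, whose nonmigratory mean was at background, was at least 2.77-fold higher (adjusted p = 0.00228). The last claudin of the list, pck, rose by 0.87 (adjusted p = 0.0359).

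Genes for adhesion proteins of the complex rose as well. Lac, the Ig-domain protein lachesin, had signals of 806, 833 and 925 in migratory and 332, 377 and 377 in nonmigratory cells, and Gli, the tricellular junction protein gliotactin, had 672, 599.6 and 744 in migratory and 269.5, 269 and 277 in nonmigratory cells. Both sets were tight within a fraction and far apart between fractions. The log2 difference was 1.22 for Lac (SE 0.141, adjusted p = 0.000125) and 1.28 for Gli (SE 0.155, adjusted p = 0.000145). Contactin (Cont, log2 1.33), neurexin IV (Nrx-IV, 1.12) and the L1-type protein neuroglian (Nrg, 0.66) rose too.

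GPI-anchored Ly6 proteins help to assemble the junction, and 3 of the 4 in the list were called. crim had signals of 1078, 699.8 and 851 in migratory and 332, 376 and 331 in nonmigratory cells. Its log2 difference was 1.30 (SE 0.157, adjusted p = 0.000143), beside 1.58 for cold (adjusted p = 0.00912) and 1.51 for crok (adjusted p = 0.0233). The remaining one, bou, gave 0.41 with overlapping arrays and was not called (adjusted p = 0.114). Thus 3 of these genes separated the fractions and bou did not.

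The cytoplasmic and scaffold members were less uniform. l(2)gl, a cytoplasmic polarity protein also needed in border cell migration, had signals of 148, 166 and 180 in migratory and 82.4, 67.7 and 67.9 in nonmigratory cells and rose by 1.10 (adjusted p = 0.00338). The FERM protein gene cora (0.46), its relative yrt (0.61), scrib (0.73), and the membrane-associated scaffold genes vari (-0.52) and dlg1 (-1.17) were not called. The dlg1 and vari probe sets were dim, with signals of 10.3 to 98.2 over the 6 arrays, and they were the only members with values below 0. The sodium pump beta subunit nrv1 rose by 0.40 (adjusted p = 0.023), but not without migratory replicate 2, nonmigratory replicate 2 or nonmigratory replicate 3, and nrv2 gave 0.80 (adjusted p = 0.151). With each array left out in turn 10 to 12 of the 21 were called.

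Gap junction genes showed the same division into called and uncalled members. Innexins form the channels of insect gap junctions, and follicle cells use them to exchange small molecules with each other and with the germline. Inx3 had signals of 2444, 2688 and 2467 in migratory and 1020.3, 951 and 908 in nonmigratory cells. That is a 2.63-fold difference with no overlap (log2 1.39, SE 0.107, adjusted p = 3.93e-06). Inx2, which pairs with Inx3 in epithelia, had 1583, 1631 and 1660.4 in migratory and 989.7, 1036 and 849 in nonmigratory cells and rose by a log2 of 0.76 (adjusted p = 0.000844). ogre, the first described innexin, rose by 0.67 (adjusted p = 0.009). The germline innexin zpg (0.45), Inx5 (0.78) and Inx7 (0.27) overlapped between fractions and were not called. Thus 3 of 6 innexins were called higher, in every fit that left out 1 array as well, against 4.27% of all features.

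**Figure D3:**
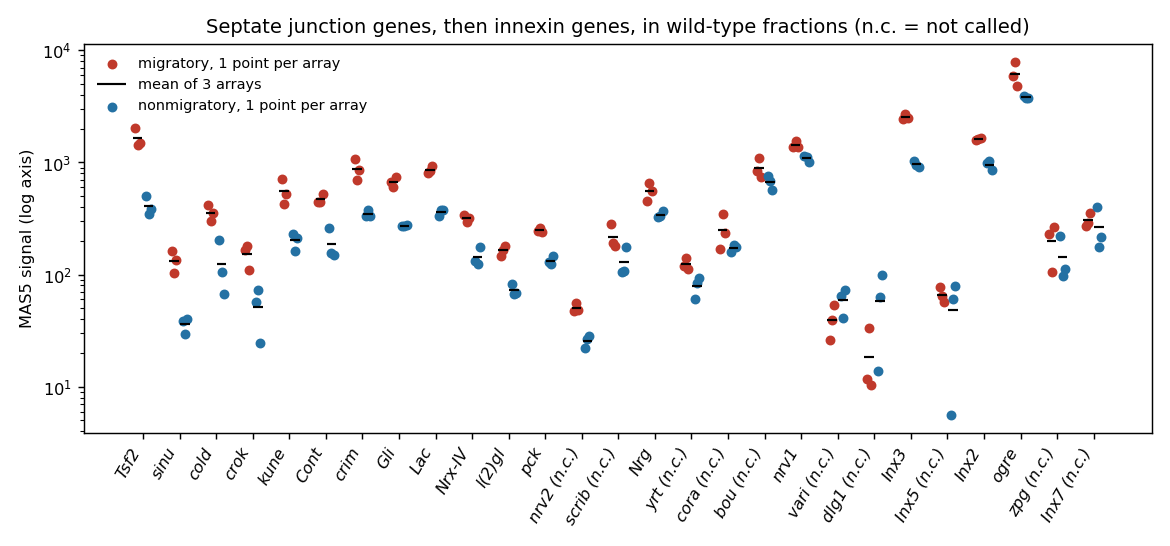
MAS5 signals (y axis, log scale) of the 21 tested septate junction genes and then the 6 tested innexins, each ordered by log2 difference, with 1 point per array, red for migratory and blue for nonmigratory, and a bar at the mean of 3 arrays. Genes marked n.c. were not called: 14 septate junction genes and 3 innexins were called, all of them higher in migratory cells.

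Other adhesion and polarity genes moved in smaller numbers. Of 22 cell surface adhesion genes 4 were higher (median log2 0.07), against 4.27% of all features. Fas1, a homophilic adhesion protein, had 736, 729.6 and 878 in migratory and 345, 271 and 337 in nonmigratory cells and rose by 1.28 (adjusted p = 0.000128), and 18w, a Toll-family receptor, had 1643, 1357 and 2270.3 in migratory and 859, 747 and 824 in nonmigratory cells and rose by 1.08 (adjusted p = 0.000627). Both separated the fractions fully. Nrt, or neurotactin, rose by 1.05, though a second and dimmer probe set gave 0.15, and the call was lost with the mean over probe sets. The cadherin gene Cad87A rose by 0.82, a call lost without any 1 of migratory replicates 1 and 3 and nonmigratory replicates 1 and 3.

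At the adherens junction 2 of 10 genes were higher (median log2 0.45), against 4.27% of all features. The alpha-catenin gene alpha-Cat had 391, 426 and 422 in migratory and 244, 312 and 225 in nonmigratory cells (log2 0.66, adjusted p = 0.0162), and the p120 catenin gene p120ctn had 281, 244 and 286 in migratory and 160.5, 162 and 179.9 in nonmigratory cells (log2 0.66, adjusted p = 0.0216). Neither overlapped between fractions, but each call was lost without migratory replicate 3 or nonmigratory replicate 1. It was also lost without nonmigratory replicate 3 for alpha-Cat, and without migratory replicate 1 or nonmigratory replicate 2 for p120ctn. Of 15 apicobasal polarity genes 2 were higher, among them the apical determinant crb (log2 0.91, adjusted p = 0.000844), and 1 without migratory replicate 2 or 3 or without nonmigratory replicate 2 or 3.

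Secretory pathway genes were higher in modest steps. Of 29 tested genes for translocation into the endoplasmic reticulum (ER) and folding there, 11 were higher and none was lower (median log2 0.34). Over all features 4.27% were called higher. The ER chaperone Gp93, a member of the Hsp90 family, had 4633, 4441 and 6018 in migratory and 3022, 3067 and 2962 in nonmigratory cells (log2 0.72, adjusted p = 0.00114). Trp1, the Sec62 subunit of the translocation machinery, had 364, 448 and 423 in migratory and 204, 220.4 and 248 in nonmigratory cells (log2 0.85, adjusted p = 0.00204). In both genes all migratory arrays were above all nonmigratory arrays. The signal peptidase gene Spase25 rose by 0.63, and TRAM, a translocon partner, by 0.53, the latter not without migratory replicate 1, nonmigratory replicate 1 or nonmigratory replicate 3. The 11 calls were 6, 6 and 7 without migratory replicates 1, 2 and 3 and 4 and 3 without nonmigratory replicates 2 and 3. Under the other processing settings given below, the GAPDH ratio apart, they were 2 to 15.

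Of 23 genes for secretory coats and Golgi traffic 7 were higher, against 4.27% of all features, and none was lower (median log2 0.36). KdelR, the receptor that returns escaped ER proteins, had 2164, 2727 and 1759 in migratory and 1335, 1012 and 973 in nonmigratory cells, the largest change of the list (log2 0.99, SE 0.164, adjusted p = 0.00147). The p24 cargo adaptors loj (log2 0.67) and CHOp24 (0.53) and the coatomer subunits alphaCOP (0.65) and betaCOP (0.61) rose with it. Their 3 migratory arrays lay above the 3 nonmigratory arrays for each of these genes. Between 5 and 7 of the 23 were called when any 1 array was left out. Under the other processing settings given below, the GAPDH ratio apart, 3 to 8 were called.

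Products for the eggshell and egg surface were higher in part, set against 4.27% of all features called higher and 4.92% called lower. Of 9 chorion genes 3 were higher (median log2 0.36), of 7 vitelline membrane genes 1 was, and of 13 yolk and embryo axis genes 2 were higher and 1 lower, the purine synthesis gene Pfas, which stands in that list by mistake. Fcp3C, a follicle cell protein of the eggshell, had signals of 3033, 2995 and 2776 in migratory and 1136, 929.5 and 891 in nonmigratory cells (log2 1.57, adjusted p = 2.68e-05). tsl, which border cells and posterior follicle cells make as a cue for the embryo's ends, had 196, 228 and 178 in migratory and 70.5, 56.5 and 90.6 in nonmigratory cells. It rose by 1.39 (SE 0.316, adjusted p = 0.0121), but not without nonmigratory replicate 2. ndl, a protease that starts the dorsoventral cascade, had 2429.7, 2493 and 2491 in migratory and 1606, 1239.6 and 1456 in nonmigratory cells and rose by 0.79 (adjusted p = 0.000307).

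Of 10 genes of the yellow family, secreted proteins of pigment, cuticle and eggshell, 2 were higher, against 4.27% of all features. yellow-k had 1266, 1451 and 999 in migratory and 97.4, 106 and 126 in nonmigratory cells, the largest difference of any tested feature. yellow-g, known from the vitelline membrane, had 1889, 1397 and 2191 in migratory and 973, 700.4 and 1036 in nonmigratory cells and rose by 1.01 (adjusted p = 0.0073). The 3 arrays of each fraction were apart for both genes. Of 23 cuticle and chitin genes 3 were higher, and of 15 ABC transporter genes 4 were higher, each without a member called lower.

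Within the ABC transporters the H-type genes osy and snu, both needed for the lipid barrier of the cuticle, stood out. osy had 1055, 940.2 and 1022 in migratory and 342, 129.7 and 138 in nonmigratory cells, and snu had 529, 508 and 526 in migratory and 149, 173 and 198 in nonmigratory cells. Nonmigratory replicate 1 had the highest nonmigratory osy signal but was still far under the migratory arrays. snu rose by a log2 of 1.55 (SE 0.199, adjusted p = 0.000215) beside 2.40 for osy. The list's 4 calls were 2 without migratory replicate 3 or without nonmigratory replicate 2.

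Glutathione transferases, which conjugate reactive compounds for removal, differed by gene. Of 25 tested genes 6 were higher and 1 was lower (median log2 0.28), against 4.27% and 4.92% of all features. GstD3 had 4299, 4346 and 3616 in migratory and 1894, 1388 and 1105 in nonmigratory cells, and GstD2 had 5181, 5039 and 4146 in migratory and 2021, 1958 and 1242 in nonmigratory cells. Their log2 differences were 1.51 (adjusted p = 5.09e-05) and 1.48 (adjusted p = 0.000142), with no overlap of arrays. GstD1, with 7073, 8981 and 7420.4 in migratory and 6226, 5655 and 5115 in nonmigratory cells, rose by 0.46 (adjusted p = 0.0152), and GstD4 by 2.26. GstD1, GstD2, GstD3 and GstD4 follow each other among the tested genes in the RefSeq annotation of Release 6 plus ISO1 MT. They are similar in sequence, so that shared hybridization to their probe sets was not tested. GstO3 (log2 0.78) and GstE6 (0.88) rose too, and GstE14, which acts in ecdysteroid synthesis, was at least 2.69-fold lower (adjusted p = 0.00343). In the mutant GstE14 was at background in both fractions, with means of 14.1 in migratory and 15.1 in nonmigratory cells.

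Lysosomal membrane genes were among the calls with the lowest p. Cln3, a lysosomal membrane protein whose human counterpart is lost in juvenile Batten disease, had 1634, 1368 and 1358 in migratory and 614, 458 and 512 in nonmigratory cells (log2 1.45, SE 0.134, adjusted p = 2.13e-05). Ctns, the cystine exporter cystinosin, had 1655, 1607 and 1431 in migratory and 673, 516 and 794 in nonmigratory cells (log2 1.25, adjusted p = 9.8e-05). Both were separate between fractions on all arrays. Of 20 autophagy and lysosome genes 3 were higher, against 4.27% of all features, with the protease CtsL1 at a log2 of 0.76. Of 15 subunits of the vacuolar ATPase, which acidifies the same compartment, none was higher and 4 were lower (median log2 -0.33). The share called lower over all features was 4.92%. Vha100-2, a membrane subunit of that pump, had 783, 839 and 862 in migratory and 1413, 1606 and 1455 in nonmigratory cells (log2 -0.84, adjusted p = 0.000451). The 4 lower subunits became 2 without migratory replicate 1 or nonmigratory replicate 2 and 7 without migratory replicate 2. Under the other processing settings given below, the GAPDH ratio apart, they were 1 to 7.

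Some cytoskeletal genes were higher, set against 4.27% of all features called higher and 4.92% called lower. Of 29 actin genes 5 were higher and none was lower (median log2 0.35), and without nonmigratory replicate 2 there were 3. cib, a beta-thymosin that binds actin monomers, had 7066, 6654 and 6097 in migratory and 3429, 3146 and 3484 in nonmigratory cells (log2 0.98, SE 0.114, adjusted p = 0.000128). Its fractions were well apart, with little spread within each. Of 23 microtubule and motor genes 4 were higher and 1 was lower. The dynein heavy chain Dhc64C had 1425, 1309.6 and 1457 in migratory and 904, 896 and 907 in nonmigratory cells (log2 0.63, adjusted p = 0.00457), and the tubulin gene alphaTub84D fell, with 1963, 2869 and 2235 in migratory and 3963, 5424 and 3961 in nonmigratory cells (log2 -0.92, adjusted p = 0.00161). The 4 higher genes were 2 without migratory replicate 1 or 3 or without nonmigratory replicate 1 or 2. Septin1, a filament protein of the cell cortex, rose by 1.08 (adjusted p = 0.000129).

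Argk1, arginine kinase, an energy-buffering enzyme that is also in the muscle list, had 1760.3, 2279 and 2080.4 in migratory and 896, 638 and 748 in nonmigratory cells and rose by 1.42 (adjusted p = 2.68e-05), but its other probe set gave 0.21, and the call was lost with the mean over probe sets. Of 18 tested muscle markers 2 were higher (median log2 0.61), against 4.27% of all features. The muscle sum moved the same way, as given above. Lipid synthesis genes among the lowest p were Pcyt1, which makes the precursor of phosphatidylcholine (913, 1207 and 1287 in migratory and 507, 466 and 470.2 in nonmigratory cells, log2 1.21, adjusted p = 0.000129), and Hmgs of the mevalonate pathway (1463, 1798 and 1580.3 in migratory and 876, 677 and 763 in nonmigratory cells, log2 1.06, adjusted p = 0.000142). Both rose without overlap. Of 32 fatty acid and lipid enzyme genes 2 were higher, or 6.25%, near the 4.27% of all features.

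Signalling pathways had some called genes. Of 17 genes of the Dpp and activin pathways 4 were higher, against 4.27% of all features, and none was lower (median log2 0.28). The activin-type ligand gene daw had 572, 538 and 762 in migratory and 228, 205 and 294 in nonmigratory cells (log2 1.34, SE 0.191, adjusted p = 0.000542). dpp, a BMP ligand made by anterior follicle cells, had 126, 85.8 and 151 in migratory and 45.0, 45.2 and 22.3 in nonmigratory cells, at least 2.44-fold higher (adjusted p = 0.015), a call lost without migratory replicate 1, migratory replicate 3 or nonmigratory replicate 3. The receptor gene wit had 132, 138 and 123 in migratory and 34.0, 79.6 and 20.7 in nonmigratory cells and rose by 1.57 (adjusted p = 0.0125), and the Smad4 gene Med rose by 0.62, but not in any of the fits without migratory replicate 1, 2 or 3 or nonmigratory replicate 1 or 2. Each of the 4 genes was apart between fractions. The 4 calls were 2 without migratory replicate 1 or 3.

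Of 18 ecdysone pathway genes 3 were higher and 2 were lower (median log2 0.15), against 4.27% and 4.92% of all features. The nuclear receptor gene ftz-f1, which acts late in follicle cells, had 174, 184 and 202 in migratory and 54.0, 51.0 and 66.0 in nonmigratory cells (log2 1.60, SE 0.241, adjusted p = 0.000779). Hr4, another nuclear receptor gene, had 708, 782 and 735 in migratory and 384, 176 and 258 in nonmigratory cells (log2 1.49, adjusted p = 0.000713). Both separated the fractions, although the call of Hr4 was lost with the mean over its probe sets. ImpL2, a secreted binder of insulin-like peptides, rose by 0.69 (adjusted p = 0.00197). dib, a P450 enzyme of ecdysone synthesis, had 38.5, 80.4 and 49.7 in migratory and 174, 135 and 158 in nonmigratory cells and fell by a log2 of 1.40 (adjusted p = 0.0129), but not without migratory replicate 1. Cth, a cystathionine gamma-lyase first found as an ecdysone-induced protein, fell by 1.04 (adjusted p = 0.0015).

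Of 19 Notch pathway genes 4 were lower and 1 was higher (median log2 -0.12), against 4.92% and 4.27% of all features. The target E(spl)m3-HLH, a transcriptional repressor, had 372, 641 and 600.4 in migratory and 1330.4, 1418 and 924 in nonmigratory cells (log2 -1.19, SE 0.21, adjusted p = 0.00222). This gene alone of the 4 kept its call whichever array was left out. fng, a glycosyltransferase that tunes Notch to its ligands, had 653, 666 and 656 in migratory and 452, 456 and 506 in nonmigratory cells (log2 0.48, adjusted p = 0.0184), a call lost without migratory replicate 3, nonmigratory replicate 1 or nonmigratory replicate 2. The 4 lower calls were 1 without migratory replicate 1, migratory replicate 3 or nonmigratory replicate 2, and 2 without nonmigratory replicate 1 or 3.

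Several signalling lists held no call. None of 23 receptor tyrosine kinase genes, 14 JNK genes, 11 Hedgehog and Wnt genes or 10 Hippo genes passed, and 1 of 8 JAK-STAT genes and 1 of 24 follicle cell transcription factors did. The JAK-STAT call was lost without any 1 of the migratory replicates and without nonmigratory replicate 1 or 3. At the 9.19% of all features called, few calls are due in any 1 list of this size, so nothing is read from a count of 0 or 1. Genes that were not called are not shown to be alike in the fractions. Of 36 border cell migration genes 4 were higher (median log2 0.24), namely l(2)gl, alpha-Cat, p120ctn and sn, and 1 or 2 without any 1 of migratory replicates 1 and 3 and nonmigratory replicates 1 and 2. The 4 calls are 11.1% of the list against 4.27% of all features called higher.

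Both collagen IV genes and the gene of the enzyme that hydroxylates collagen lysines were lower in migratory cells. Of 16 tested basement membrane genes 4 were lower, 2 were higher and 10 were not called (median log2 -0.27). The shares over all features were 4.92% lower and 4.27% higher. Collagen IV is the main network protein of the sheath around each follicle, and its chain gene vkg had 611, 576 and 766 in migratory and 2142, 3555 and 2684 in nonmigratory cells. The other chain, Col4a1, had 836, 1396 and 1207 in migratory and 3191, 4339.7 and 3532 in nonmigratory cells. Neither gene overlapped between fractions, with log2 differences of -2.07 (SE 0.173, adjusted p = 7.86e-06) and -1.70 (SE 0.164, adjusted p = 2.68e-05).

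Plod, the lysyl hydroxylase, had 534, 566 and 600.3 in migratory and 1519, 1896 and 1940 in nonmigratory cells (log2 -1.64, adjusted p = 7.86e-06). The perlecan gene trol had 448, 750.4 and 561 in migratory and 874, 1080.3 and 827 in nonmigratory cells (log2 -0.68, adjusted p = 0.019), a call lost without migratory replicate 1, migratory replicate 3 or nonmigratory replicate 2. The laminin genes LanA (-0.39), LanB1 (-0.38) and LanB2 (-0.14) were not called. In contrast PH4alphaEFB, a prolyl hydroxylase, had 3223, 2616 and 2922 in migratory and 1716, 1480.1 and 1292 in nonmigratory cells and rose by 0.97 (adjusted p = 0.000142), as did its other probe set at a log2 of 1.22. Col4a1 and vkg are the 2 called haemocyte markers, and the sum of that list moved with them. Of its 9 tested markers 5 had log2 differences above 0 and 4 below 0 (median 0.18). Ppn had means of 654 in migratory and 432 in nonmigratory cells, and crq 94.2 and 58.4. Of the list's 17 markers 9 and 8 were above background and 8 at background in both fractions. The part of blood cells in these differences was not tested.

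Nucleolar and ribosome assembly genes had the lowest median difference of the lists with 10 or more tested genes. Ribosomes are assembled in the nucleolus from rRNA that RNA polymerase I makes. Of 34 tested genes 16 fell, 18 were not called and none rose, against 4.92% of all features called lower, and the median log2 difference was -0.90. Fib, the rRNA methyltransferase fibrillarin, had 1148, 1483 and 1594 in migratory and 3591, 4148 and 3316 in nonmigratory cells (log2 -1.39, SE 0.156, adjusted p = 9.8e-05). NHP2, a protein of the particles that guide rRNA pseudouridylation, had 147, 198 and 192 in migratory and 488, 538 and 465 in nonmigratory cells (log2 -1.44, adjusted p = 0.000129). Every migratory array was far under every nonmigratory array for both.

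The large subunit of RNA polymerase I, Polr1A, had 420, 513 and 512 in migratory and 882, 1302 and 1219.6 in nonmigratory cells (log2 -1.21, adjusted p = 0.00022). bys, a factor of the small ribosomal subunit, had 175, 204 and 197 in migratory and 412, 412 and 455 in nonmigratory cells (log2 -1.12, adjusted p = 0.000795). LTV1, which acts on the same subunit, had 294, 459 and 369 in migratory and 835, 1141 and 870 in nonmigratory cells (log2 -1.33, adjusted p = 0.000145). All 3 genes separated the fractions. The nucleolar and histone chaperone genes Nph (log2 -1.15), Nlp (-0.70) and Nap1 (-1.13) fell too. With each array left out in turn 11 to 16 of the 34 were called. The 27 cytosolic ribosomal protein genes gave a median of -0.23, and none of them was called. All 27 values were below 0. Between the fractions 10 of the 27 genes did not overlap, against 25.1% of all features in either direction. Without migratory replicate 2 the test called 16 of the 27 lower.

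Nucleotide synthesis genes were lower to a similar degree. Of 18 tested genes of purine and pyrimidine synthesis 11 were lower, against 4.92% of all features, and none was higher (median log2 -0.81). Prps makes the activated ribose that both routes use. It had 445, 496 and 470.5 in migratory and 922, 1399 and 1198 in nonmigratory cells (log2 -1.29, SE 0.157, adjusted p = 0.000145). The purine enzyme genes Paics (440.3, 430 and 438 in migratory and 737, 974 and 811 in nonmigratory cells, log2 -0.93, adjusted p = 0.00155) and Adsl (371, 330 and 414 in migratory and 993, 787 and 619 in nonmigratory cells, log2 -1.07, adjusted p = 0.00375) fell. Their migratory arrays lay below all nonmigratory arrays.

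Ctps, which makes CTP, had 61.9, 47.4 and 96.4 in migratory and 160.4, 191 and 255 in nonmigratory cells (log2 -1.49, adjusted p = 0.00185). r, the enzyme of the first steps of pyrimidine synthesis, fell by 0.81 (adjusted p = 0.00138), though not with the mean over its probe sets. The 11 calls were 7 without nonmigratory replicate 2. Counts in the next lists are also set against 4.92% of all features called lower. Of 16 one-carbon, serine and transsulfuration genes 4 were lower (median log2 -0.49), with Ahcy, which clears the product of methylation, at 2416, 1939 and 1936 in migratory and 2963, 3876 and 3148 in nonmigratory cells (log2 -0.66, adjusted p = 0.00343), and 7 without migratory replicate 2. Of 31 DNA replication genes 6 were lower (median log2 -0.40), among them the clamp loader gene RfC3 with 78.9, 88.8 and 85.6 in migratory and 171, 198 and 183 in nonmigratory cells (log2 -1.06, adjusted p = 0.00305), and 3 without nonmigratory replicate 2, while none of 26 cyclin and mitosis genes was called.

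Genes of the mitochondrion were lower across several functions. Mitochondria translate the core subunits of the respiratory chain on ribosomes of their own, whose proteins come from nuclear genes. Of 66 tested mitochondrial ribosomal protein genes 28 were lower, against 4.92% of all features, and none was higher (median log2 -0.54). Values below 0 were found for 65 of the 66. bonsai, a small-subunit protein, had 263, 282 and 259 in migratory and 478, 599 and 465 in nonmigratory cells (log2 -0.91, SE 0.134, adjusted p = 0.000657). mRpL51, of the large subunit, had 709.9, 654 and 837 in migratory and 1070.4, 1348 and 1129.6 in nonmigratory cells (log2 -0.68, adjusted p = 0.00274). The fractions were apart for both and for 46 of the 66 in all, against 25.1% of all features in either direction. The 28 calls were 14 without migratory replicate 1, 15 without migratory replicate 3, 17 without nonmigratory replicate 1 and 10 without nonmigratory replicate 2.

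Of 15 genes for mitochondrial chaperones and protein import 8 were lower and none was higher (median log2 -0.66), with all 15 below 0. The share called lower over all features was 4.92%. mge, a subunit of the import pore complex of the outer membrane, had 382, 501 and 518 in migratory and 856, 1029 and 875 in nonmigratory cells (log2 -0.97, adjusted p = 0.000811). Tom20, an import receptor, had 478, 599 and 489.7 in migratory and 822, 821 and 847 in nonmigratory cells (log2 -0.67, adjusted p = 0.00267), and Trap1, the mitochondrial Hsp90, had 372, 308 and 463 in migratory and 580.4, 1079 and 812 in nonmigratory cells (log2 -1.07, adjusted p = 0.00353). None of the 3 overlapped between fractions, and the nonmigratory arrays of Trap1 were spread widely. The 8 calls were 5 without migratory replicate 1, nonmigratory replicate 2 or nonmigratory replicate 3.

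Of 53 subunits of oxidative phosphorylation 21 were lower, against 4.92% of all features, and none was higher (median log2 -0.40). Values of 51 were below 0. blw, the alpha subunit of ATP synthase, had 6075, 6171 and 6332 in migratory and 9039.6, 8556 and 8969 in nonmigratory cells (log2 -0.52, SE 0.0807, adjusted p = 0.000977). The difference was small, but the arrays of each fraction lay close together. Of 14 citrate cycle genes 4 were lower (median log2 -0.19), led by mAcon1, aconitase, with 1587, 1668 and 1639 in migratory and 2450.4, 2815 and 2797 in nonmigratory cells (log2 -0.72, adjusted p = 0.000266), and of 10 glycolysis genes 1 was lower, or 4 without migratory replicate 2 and 2 without migratory replicate 1 or nonmigratory replicate 2. The 21 calls were 10 without migratory replicate 1, 11 without migratory replicate 3, 12 without nonmigratory replicate 1 and 7 without nonmigratory replicate 2. Under the other processing settings given below, the GAPDH ratio apart, they were 3 to 26.

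**Figure D4:**
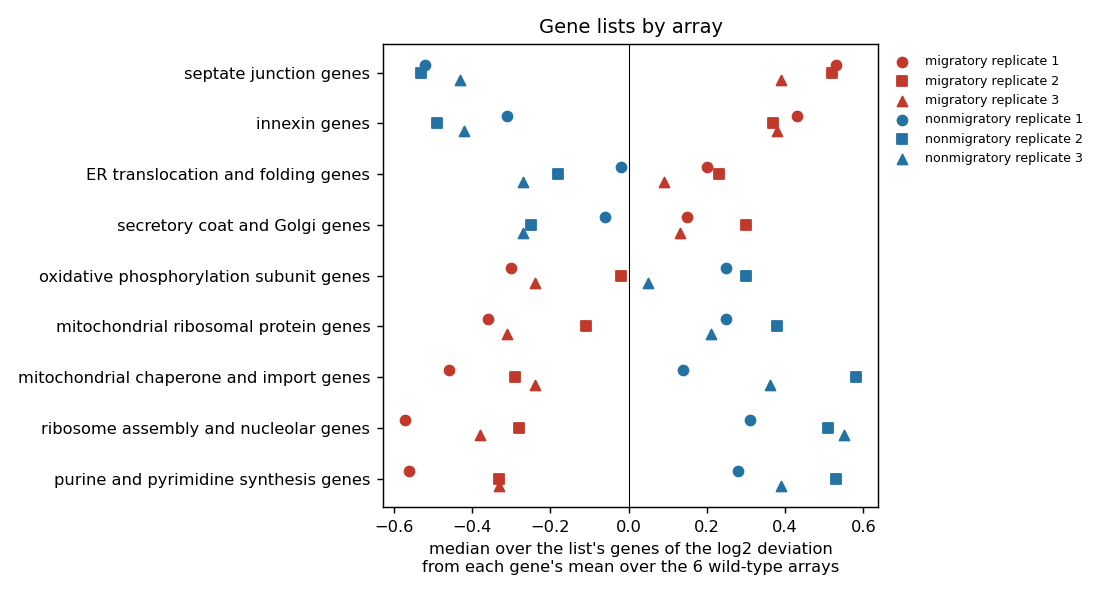
For 9 gene lists (y axis) each symbol gives 1 wild-type array: the median over the list's genes of the log2 deviation from each gene's mean over the 6 arrays (x axis), red for migratory, blue for nonmigratory, with a symbol shape per replicate number. Septate junction and innexin medians lie at 0.37 to 0.53 on migratory arrays, ribosome assembly and nucleotide synthesis medians at -0.57 to -0.28, and oxidative phosphorylation medians come closest together, at -0.02 on migratory replicate 2 and 0.05 on nonmigratory replicate 3.

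The level of the lists on single arrays showed which of these shifts were even. The septate junction median was 0.53, 0.52 and 0.39 above the mean of the 6 arrays on the migratory arrays and -0.52, -0.53 and -0.43 on the nonmigratory arrays. For ribosome assembly it was -0.57, -0.28 and -0.38 against 0.31, 0.51 and 0.55, and for mitochondrial ribosomal proteins -0.36, -0.11 and -0.31 against 0.25, 0.38 and 0.21. Migratory replicate 2 lay nearest to the nonmigratory arrays in both of the latter lists. The 9 plotted lists did not overlap between fractions, but they hold genes called from these same arrays, so this is no separate support. Some lists not plotted overlapped, as for basement membrane genes, at 0.03 on migratory replicate 2 and 0.00 on nonmigratory replicate 1. Others did not, as for DNA replication genes, at -0.26, -0.19 and -0.19 on migratory and 0.11, 0.44 and 0.29 on nonmigratory arrays.

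Other genes among the lower calls with the lowest p had the following values. Irp-1B, an iron regulatory protein of the aconitase family, had 38.3, 29.7 and 33.2 in migratory and 174, 259.6 and 195 in nonmigratory cells and was at least 4.58-fold lower (adjusted p = 9.8e-05). Oat, ornithine aminotransferase, had 1669.9, 2869 and 2269 in migratory and 5281, 5708 and 6327 in nonmigratory cells (log2 -1.37, adjusted p = 0.000119). Fdh, which clears formaldehyde, had 339, 456 and 368 in migratory and 923, 1184 and 956 in nonmigratory cells (log2 -1.38, adjusted p = 4.72e-05). The arrays of all 3 genes were apart between fractions. The maltase gene Mal-A5 (log2 -1.68, adjusted p = 0.000115) and the glyoxalase gene Glo1 (log2 -1.37, adjusted p = 0.00022) fell as well.

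**Figure D5:**
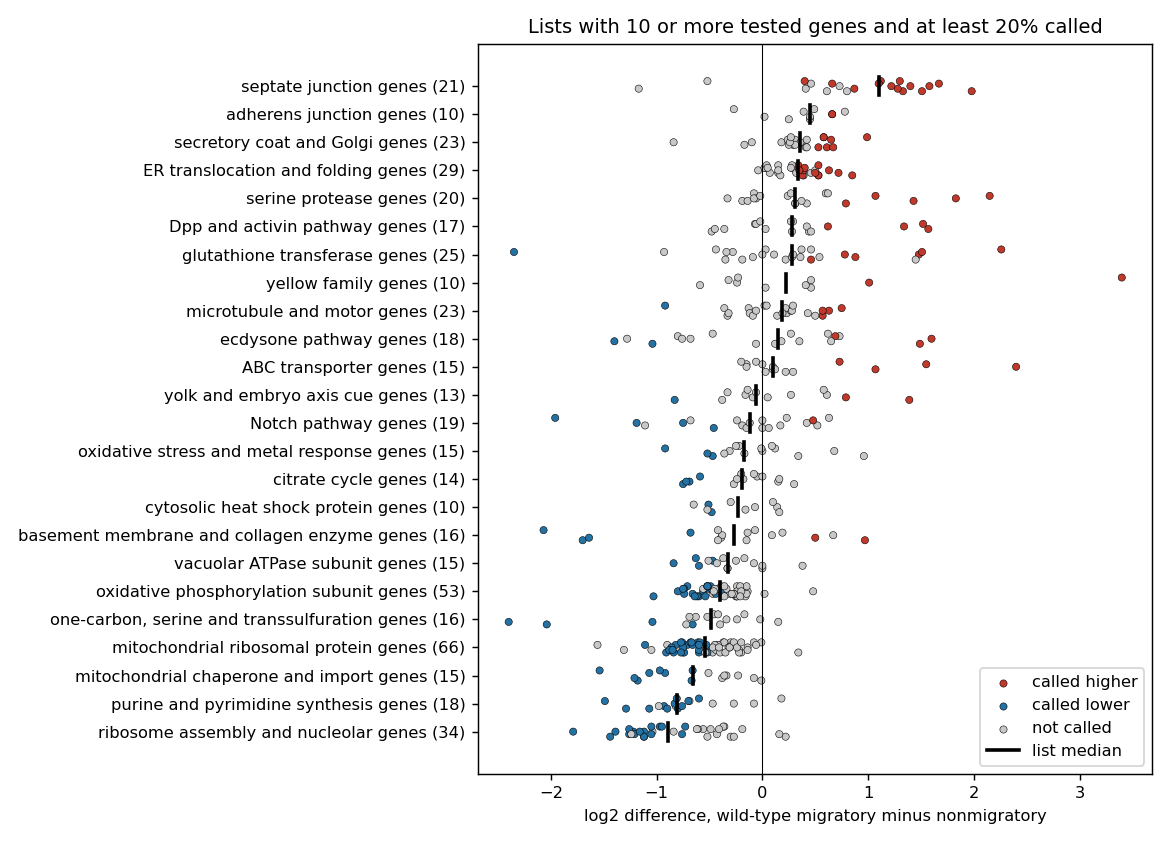
Every tested gene of the lists with at least 10 tested genes and at least 20% called is a point at its log2 difference between wild-type fractions (x axis), red or blue where called higher or lower and grey where not called, with a black bar at the list median. The number of tested genes is in brackets. Septate junction genes are highest with a median of 1.10, and ribosome assembly genes lowest with -0.90.

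Counts in lists for other functions are read against the 4.27% of all features called higher and the 4.92% called lower. Of 20 serine protease genes 5 were higher, of which the digestive genes Jon99Fi, Jon65Ai and Jon99Fii are also in the gut list, where 4 of 30 were higher (median log2 0.26), and without migratory replicate 3 the counts were 3 and 1. Of 31 endocytosis and recycling genes 3 were higher, but none without migratory replicate 3 or nonmigratory replicate 2. Of 15 oxidative stress and metal response genes 3 were lower, but 1 without any 1 of migratory replicates 1 and 3 and nonmigratory replicates 1 and 2. Of 10 cytosolic heat shock genes 2 were lower, with a range of 1 to 3 when each array was left out in turn. None of 26 proteasome genes was called, and 0 to 2 were lower with an array left out. The lists of P450 genes, aminoacyl-tRNA synthetase genes and germline markers held 1 or 2 calls each, which changed with the array left out, and nothing is read from them. Of 15 immune genes PGRP-LB, an enzyme that degrades peptidoglycan, had 480.4, 689 and 556 in migratory and 195, 178 and 187 in nonmigratory cells and rose by 1.57 (adjusted p = 0.000145).

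The same fractions of slbo mutant ovaries were used to ask whether these differences were of similar size there. No array is shared between the 2 comparisons, but both use the same variance estimate for each feature. In the mutant 801 features were called, or 8.92%. For the 383 features higher in wild-type migratory cells the median log2 difference in the mutant was 0.51, and for the 442 lower features -0.69. The difference between the 2 genotypes' fraction effects was called for 0 features (0%) by limma, with 603 at an unadjusted p under 0.05, and for 2 without wild-type migratory replicate 3. The median SE of that difference was 0.427.

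By list, the septate junction median was 1.10 in the wild type and 0.87 in the mutant, where 10 of 21 genes were called higher, and all 21 had the same sign in both. Ribosome assembly genes gave -0.90 and -0.88, mitochondrial ribosomal protein genes -0.54 and -0.53, and purine and pyrimidine genes -0.81 and -0.77. The ER list gave 0.34 and 0.12, with 11 and 0 of 29 called, and the lowest adjusted p of a test between genotypes in that list was 0.423. Gp93, with a log2 difference of 0.72 in the wild type and 0.03 in the mutant, gave that lowest value (difference 0.70). l(2)gl gave 1.10 and 0.11 (adjusted p of the difference = 0.621), and Lac 1.22 and 1.17 (difference 0.05, adjusted p = 0.984). None of these genes was thus shown to differ between genotypes in its fraction effect.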

How the data were processed

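RNA of 2 ovarian cell fractions from 2 genotypes was hybridised to 12 arrays. The deposited values were signal intensity values on a linear scale, made with MAS5 per the submitters' processing notes, with no version stated. They were kept as deposited. Of 14010 probe sets 44 were controls, 12442 had 1 gene, 327 several and 1197 none in the annotation table used. The probe set with the highest mean stood for a gene. Other probe sets existed for 68 called genes, and for 38 of these genes all of them had the same sign. Signals were changed to log2 after adding 5% of the trimmed mean (7.5), and features above the 40th percentile of at least 3 arrays were tested. The means of the 4 groups were fitted with limma 3.58.1 (R 4.3.3), letting the prior variance follow intensity, which left 8 residual degrees of freedom. All adjusted p values are Benjamini-Hochberg values over 8978 features. Background was taken from 23 control probe sets for transcripts that fly RNA lacks, at their 95th percentile (39.2 on average), and a fraction's mean signal at or under it gave a bound ("at least"), the brighter signals against the higher of signal and background.

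Genes were named from the 20 of lowest p in each direction that had a name beyond a CG or CR number, separate arrays and a brighter fraction above the median signal, and from 67 lists drawn from general knowledge, at most 5 called genes of each by lowest p. Further septate junction, innexin and laminin genes, GstD1, GstE6, Nph and Nlp were added after their values were seen. The comparison, the lists and the tests were chosen with earlier results of these data known. p-values measure the spread between the arrays. The fit was tested on simulated data. Python 3.11.15 (numpy 2.4.6, pandas 2.3.3, scipy 1.17.1, matplotlib 3.10.9) prepared tables and figures. Alternatives were the added constant, the filter, quantile normalization, median centring, no variance trend, only the 2 groups compared, means over probe sets, array weights, a replicate block, the GAPDH ratio as a covariate, and each array left out.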

Additional observations from a re-analysis of the deposited data

Results flagged for a closer look

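Acbp6, a gene for an acyl-CoA binding protein, had opposite fraction differences in the genotypes. Its signals were 66.6, 51.3 and 72.9 in wild-type migratory and 143, 98.6 and 136 in wild-type nonmigratory cells, but 208, 192 and 241 in mutant migratory and 99.3, 117.5 and 138 in mutant nonmigratory cells. The fractions did not overlap in either genotype, and the wild-type minus mutant difference was -1.72 on the log2 scale, which did not pass in limma (adjusted p = 0.213). CG10257 was opposite in the same way, with a difference of -1.89 (adjusted p = 0.427), as was the cuticle gene Edg78E, with -2.94 (adjusted p = 0.423). The wild-type migratory means of CG10257 and Edg78E were at background. These 3 genes were picked out after their values were seen, by separate arrays in opposite directions in the genotypes, so that separation is no support.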

How the results depend on the processing

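Of 825 features called between the wild-type fractions (383 higher, 442 lower), 503 were called with no variance trend (236 and 267), 495 with only the 2 groups compared (238 and 257), and 4 with the GAPDH ratio as a covariate (3 and 1). Median centring gave 366 higher and 273 lower. Leaving out each array in turn gave 451 to 962 in all, 238 to 381 higher and 213 to 581 lower. The mutant count of 801 was 436 with no variance trend and 168 with the GAPDH ratio. The count of differences between genotypes was 0 to 2 over the fits without 1 array. Of 171 called genes that the naming rule picked, 102 were called in the same direction in all settings other than the GAPDH ratio. With that ratio 4 of the 171 were called, 166 were not, and Hesr, a Notch target, changed sign (log2 0.02). No variance trend ended 48 of the 171 calls. Replicate numbers were shared between fractions, but same-numbered arrays deviated together only weakly (r = 0.036, 0.083 and 0.035), so no pairing was assumed, although each migratory array correlated best with its own number. With a replicate block 858 features were called. Signals near background limit dim genes to bounds. The cause of these changes was not tested.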

Other observations

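Further gene families were picked out after their values were seen and carry no test of their own as groups. Beyond the septate junction list, pasi1 and pasi2, transmembrane proteins that help to assemble pleated septate junctions, rose by a log2 of 1.36 (adjusted p = 0.000356) and 1.34 (adjusted p = 0.000145), and so did the tricellular junction genes bark (1.30, adjusted p = 0.0185) and M6 (0.77, adjusted p = 0.0238). pasi2 had signals of 607, 550.3 and 531 in migratory and 198, 203 and 253 in nonmigratory cells. In contrast mesh (-0.08), Ssk (0.36) and Tsp2A (0.32), which build the smooth septate junctions of the gut, were not called in the wild type. In the mutant mesh rose by 1.29, Ssk by 1.30 and Tsp2A by 0.62, and for mesh the test between genotypes gave an adjusted p of 0.360.

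On the nonmigratory side, 4 of 8 tested subunits of the CCT chaperonin, which folds actin and tubulin, were lower (median log2 -0.59), with CCT1 at -0.88 and CCT8 at -0.84. Of 6 RNA polymerase I subunits 3 were lower (median -1.08), of 9 genes of the RNA exosome 4 (median -1.04), of 13 genes of nuclear import and the Ran cycle 5 (median -0.41) and of 14 eIF3 translation factor subunits 4 (median -0.35). None of these 5 families held a gene called higher. Over all features 4.92% were called lower and 4.27% higher. Of 30 tetraspanin genes 3 were higher, Tsp42A, Tsp66E and Tsp86D, and none was lower.

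Among 7899 tested genes placed in the order of the RefSeq annotation (Release 6 plus ISO1 MT), 6 runs of 3 or more neighbours were called in the same direction. Besides the GstD genes these were Hsc70-4, Set and ATPsynO (lower), Nph, Nlp and CG7920 (lower), CG10182, CG10184 and CG31145 (higher), PH4alphaEFB, Jon99Fii and Jon99Fi (higher), and CG11381, CG14624 and CG11382 (higher). CG14624 had signals of 444.5, 386 and 378 in migratory and 111, 92.8 and 163 in nonmigratory cells (log2 1.69, SE 0.232, adjusted p = 0.000380).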
